A study of Mus musculus with 12 samples.

Results

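The genes described here are 10 mouse genes of antibody-secreting cells: the plasma cell genes Jchain, Mzb1, Derl3 and Tnfrsf17, the heavy chain constant regions Ighm, Igha, Ighg1, Ighg2b and Ighg2c, and the kappa light chain constant region Igkc. They were picked by symbol, with their values in these tumors already known, out of 55401 genes in the count matrix, so their levels are given as a description. No p-value is given for any of them, and where the fit over all genes is counted, the count stands beside the share of all genes and nothing is read from it. Plasma cells arise from activated B cells and secrete immunoglobulin, and for this they enlarge the endoplasmic reticulum. A naive B cell makes IgM and IgD by alternative splicing of the same primary transcripts. Class switch recombination then joins the V region to a gamma, alpha or epsilon constant region, which sets where the antibody goes and which receptors it binds. In C57BL/6 mice the gamma isotype driven by interferon gamma is IgG2c, whereas IgG1 is driven by interleukin 4.

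Poly(A) RNA was sequenced from 12 subcutaneous tumors of TC2Ras, a Ras-driven mouse prostate cancer cell line, with 3 tumors in each of 4 groups. Every mouse had first been kept for 2 weeks on a purified diet low in arsenic (AIN-76A) and Milli-Q water, and 125000 cells were then placed under the skin of both flanks. Control tumors came from TC2Ras cells alone in mice given 0 ppb inorganic arsenic (iAs) in the drinking water, and As300 tumors from TC2Ras cells alone in mice given 300 ppb iAs. ASC tumors came from TC2Ras cells mixed with 1% GFP-marked adipose-derived mesenchymal/stromal cells (ASC) at 0 ppb iAs, and ASC_As300 tumors from the same mixture at 300 ppb iAs. The ASC were primary cells isolated from male GFP-transgenic C57BL/6 mice. Tumors were taken at 21 days, and each library held the left and right flank tumors of 1 mouse combined. The strain, sex and age of the mice that carried the tumors were not given in the sources used here. The labels name the cell type of every library as adipose-derived stromal cells, whereas macrophage genes summed to 1316 to 2351 CPM and the tumor keratin Krt8 had 1152 to 16302 counts, and the libraries are called tumors throughout.

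Library totals ran from 39157647 to 55168642 counts. Levels are given as CPM, counts relative to the library total after TMM normalization. A detection floor of 12 counts was used, which is 0.212 to 0.322 CPM. Control replicate 1 stood apart from the other 11 tumors: it was at -101.8 on the first principal component of log2 CPM, which held 17.27% of the variance, and the other tumors were at -22.53 to 64.88. In this tumor the 16 B cell genes summed to 17326 counts against 548 to 1666 elsewhere, and Ccl21a, a chemokine of lymphoid tissue stroma and lymphatic vessels, was at 1620 against 0 to 71. Krt8 was also highest there (16302 against 1152 to 5523), and Glycam1, an adhesion ligand of high endothelial venules, was at 190 against 0 to 8. For the 10 genes, and for genes named with a call in other lists, comparisons with Control are therefore given with and without this tumor, and the part of these cell types in the results was not tested.

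Jchain encodes the joining chain that links IgM and IgA monomers into polymers. It was at 17.9, 0.365 and 0.412 CPM in Control replicates 1 to 3, at 2.41, 1.39 and 1.82 in ASC, at 0.200, 0 and 0.212 in As300, and at 1.55, 0.988 and 1.998 in ASC_As300. Setting Control replicate 1 aside, every tumor that received ASC was above every tumor that did not, whether or not the mouse drank iAs. The same held for 5 of the 9 genes that could be tested (Jchain, Ighm, Ighg2b, Ighg2c and Igkc), beside 2.62% of all 20818 genes tested, and the opposite order held for none, beside 0.399%. This comparison, without Control replicate 1, was chosen after seeing the data. In raw counts this was 50 to 119 in the 6 tumors with ASC, 0 to 12 in As300 and 19 in each of Control replicates 2 and 3.

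Igkc, the constant region of kappa light chains, followed the same order. Its CPM was 113, 1.73 and 2.78 in Control, 7.21, 16.3 and 12.3 in ASC, 2.70, 2.09 and 1.095 in As300, and 8.32, 4.33 and 16.1 in ASC_As300. The lowest tumor with ASC (4.33, ASC_As300 replicate 2) was thus above the highest tumor without ASC other than Control replicate 1 (2.78). The annotation has another gene, Gm30211, overlapping Igkc on the same strand, so the counts of Igkc and the ratios made from them are uncertain.

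Ighm, the mu heavy chain constant region, was the most abundant heavy chain constant region per length of transcript in 11 of the 12 tumors, the exception being ASC_As300 replicate 3, where Ighg2c was above it. It was at 182, 13.6 and 7.85 CPM in Control, 26.8, 41.1 and 25.3 in ASC, 13.1, 10.98 and 8.65 in As300, and 21.0, 28.5 and 22.7 in ASC_As300, so the groups parted as for Jchain and Igkc but by a smaller factor. Ighm kept 362 to 707 counts in the tumors where Igkc was lowest. In these 5 tumors (As300 and Control replicates 2 and 3) the ratio of Igkc to Ighm counts was 0.127 to 0.354, against 0.623 in Control replicate 1 and 0.152 to 0.710 in the tumors with ASC. These ranges overlapped.

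**Figure D1:**
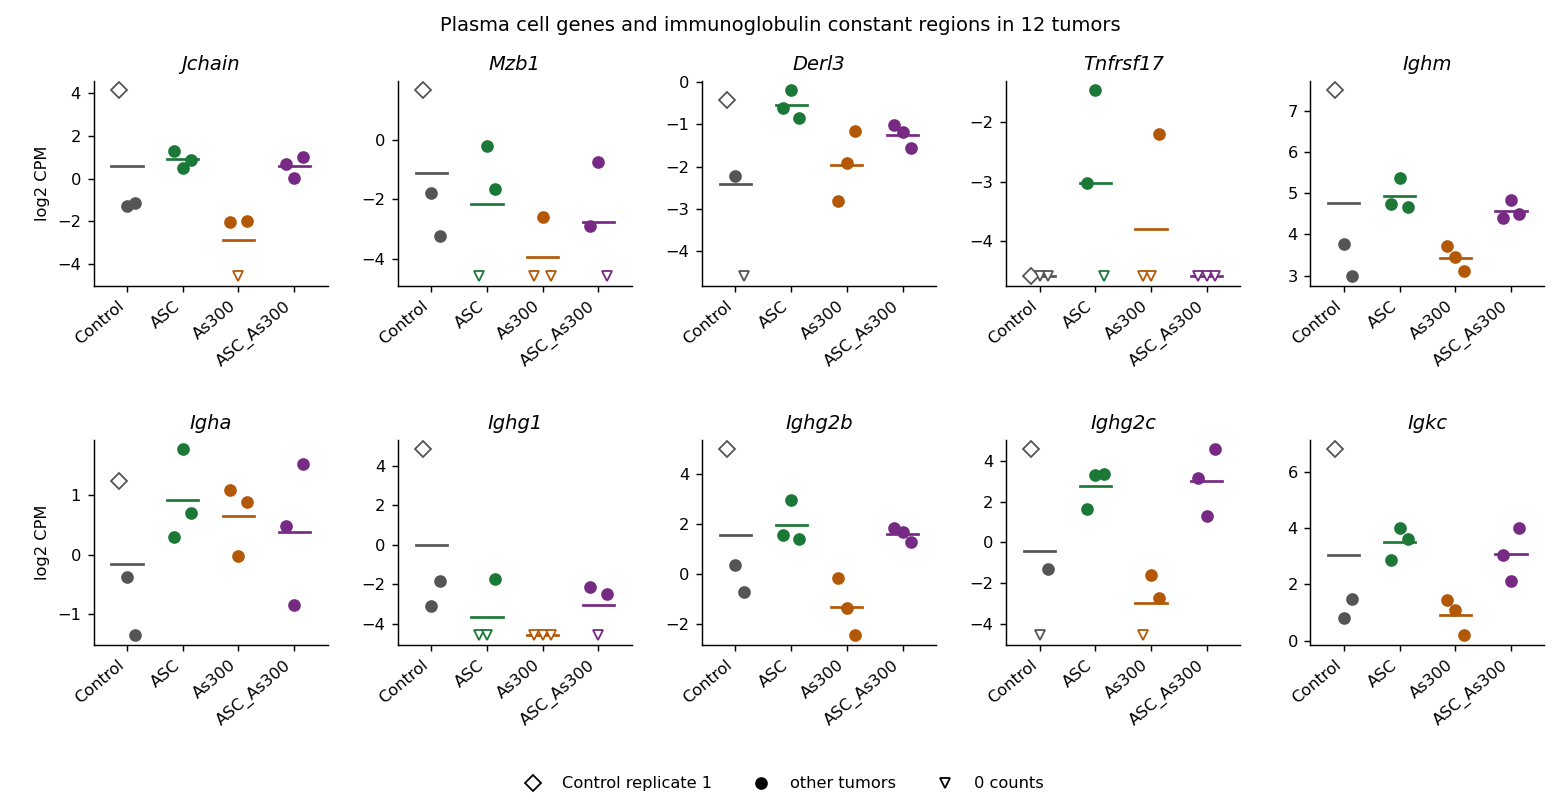
Level of each of the 10 genes, as log2 CPM with a prior count of 2 (vertical axis, own scale per gene), in the 12 tumors by group. Circles are tumors, the open diamond is Control replicate 1, open triangles are tumors with 0 counts (Control replicate 1 was at 0 for Tnfrsf17), and bars are group means of log2 CPM. For Jchain, Ighm, Ighg2b, Ighg2c and Igkc every ASC and ASC_As300 tumor lies above every As300 tumor and above Control replicates 2 and 3, as for 2.62% of all genes tested.

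The 3 gamma constant regions behaved unequally. Ighg2c was at 24.0, 0 and 0.369 CPM in Control, 3.06, 10.02 and 10.51 in ASC, 0, 0.286 and 0.106 in As300, and 8.97, 2.41 and 24.4 in ASC_As300. ASC_As300 replicate 3, with 1233 counts, was at the level of Control replicate 1, with 1162. Ighg2b was at 31.8, 1.25 and 0.564 CPM in Control, 2.90, 7.80 and 2.59 in ASC, 0.851, 0.348 and 0.141 in As300, and 3.52, 3.14 and 2.37 in ASC_As300. For both genes the tumors with ASC were above As300 and Control replicates 2 and 3. Ighg1 had 1396 counts (28.9 CPM) in Control replicate 1 and 0 to 11 counts in the other 11 tumors, all under the floor, including 0 in the 3 As300 tumors, so no fold is given for it.

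Igha, the alpha constant region of mucosal antibody, did not follow this order. It was at 2.34, 0.729 and 0.347 CPM in Control, 1.19, 3.40 and 1.59 in ASC, 2.10, 0.940 and 1.82 in As300, and 1.36, 0.514 and 2.85 in ASC_As300. The 4 groups overlapped, and ASC_As300 replicate 2 was lower than each As300 tumor.

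The hinge exon, which joins the Fab arms of an antibody to its Fc stem, differs in length and sequence between the gamma genes, and with it reads of Ighg1, Ighg2b and Ighg2c can be told apart. The sequences below are from GENCODE transcripts on GRCm38, minus strand, with the hinge exon in capitals and 12 bases of each neighbouring exon in lower case. The exons are 39 bases for Ighg1 (chr12:113329844-113329882), 66 for Ighg2b (chr12:113307261-113307326) and 63 for Ighg2c (chr12:113288263-113288325), each the second of the 4 exons of the secreted transcript.
Ighg1: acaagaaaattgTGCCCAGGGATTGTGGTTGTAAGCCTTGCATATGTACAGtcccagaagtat
Ighg2b: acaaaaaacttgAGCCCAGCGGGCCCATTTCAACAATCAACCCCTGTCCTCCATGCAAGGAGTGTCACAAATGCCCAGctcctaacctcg
Ighg2c: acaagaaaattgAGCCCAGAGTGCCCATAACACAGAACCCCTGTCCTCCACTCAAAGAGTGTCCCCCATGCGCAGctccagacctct
Over the whole transcript Ighg2b and Ighg2c were 86.8% identical and Ighg1 was 77.6% and 77.8% identical to them. Of the windows of 75 bases, 6 of 1040 in Ighg2b (0.577%) were also in Ighg2c, and none of the 1002 in Ighg1 was in another constant region, so the split between Ighg2b and Ighg2c rests on reads that mostly differ. How the counting treated reads that match both is not given in the sources used here.

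Within the gamma counts, Ighg1 made up 33.2% in Control replicate 1 (95% Wilson interval 30.4 to 36.1%), Ighg2b 36.6% (33.7 to 39.5%) and Ighg2c 27.6% (25.0 to 30.4%). The intervals treat 4 counts as 1 molecule and cover counting error only. In the 6 tumors with ASC, Ighg1 was 0 to 1.88% of 281 to 1432 gamma counts. Where it was 0 (ASC replicates 1 and 2, ASC_As300 replicate 2), the floor allows shares of up to 3.68%, 1.80% and 4.27%. Ighg2c took 43.4 to 86.1% of the gamma counts in the tumors with ASC, highest in ASC_As300 replicate 3 (82.1 to 89.2%), followed by ASC replicate 3 at 77.1% (70.0 to 83.4%) and ASC_As300 replicate 1 at 67.2% (59.9 to 73.5%). Neighbours in the order of the 6 tumors overlapped in their intervals, and ASC_As300 replicate 3 was above ASC_As300 replicate 1 beyond them. As300 tumors held only 14 to 34 gamma counts each, with intervals for Ighg2c that ran from 0 to 85.0%.

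Per length of transcript and over all 8 heavy chain constant regions, Ighg2c was 10.8, 16.9 and 30.2% in ASC and 28.7, 8.60 and 49.3% in ASC_As300. It was 0, 2.55 and 1.20% in As300 and 7.15, 0 and 3.77% in Control, so the lowest tumor with ASC (8.60%) was above each of the 6 tumors without ASC, Control replicate 1 included. The share of all switched isotypes (alpha, gamma and epsilon) was 27.5 to 43.7% in ASC, 21.6 to 63.2% in ASC_As300, 14.1 to 23.6% in As300, and 27.3, 13.8 and 15.6% in Control. The switched share overlapped between ASC_As300 and As300, where Igha was 8.46 to 20.8% of the heavy chain on 46 to 103 counts. With the lengths of all annotated exons in place of the secreted transcript, the Ighg2c share was 9.79 to 54.9% in the tumors with ASC and 9.97% in Control replicate 1, so the separation from that tumor was then lost (a setting chosen after seeing the data).

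**Figure D2:**
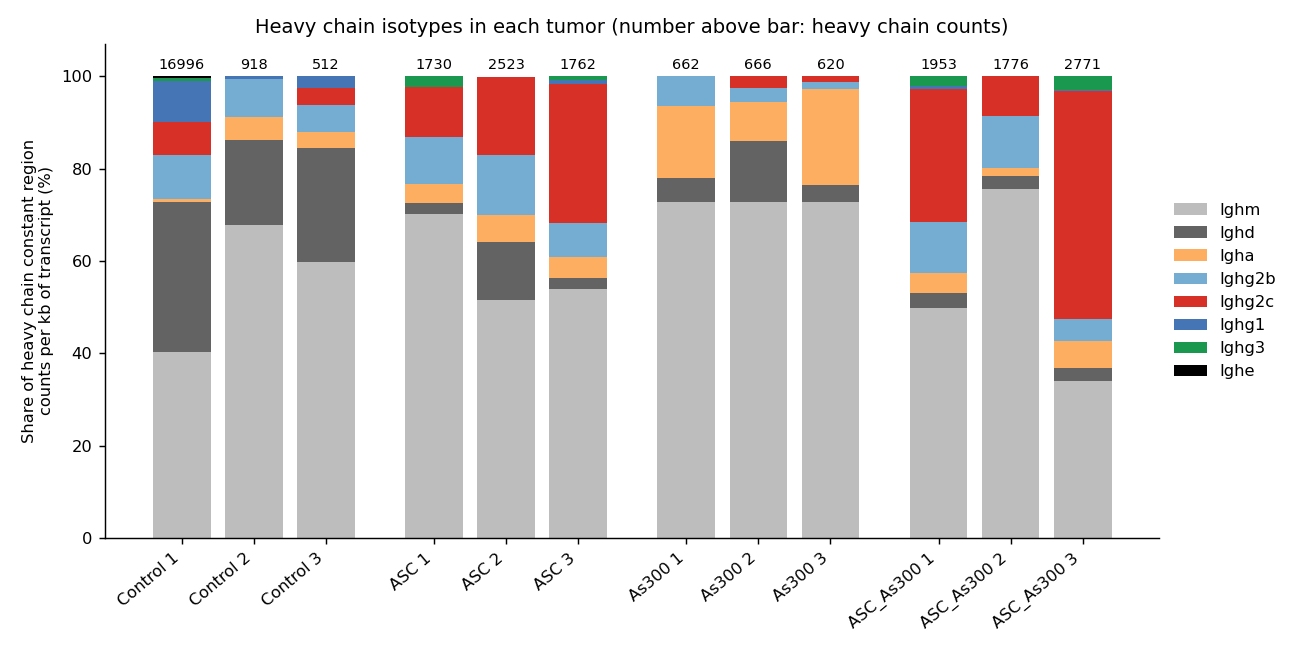
Share of each heavy chain isotype in the counts per kilobase of the 8 heavy chain constant regions (vertical axis, %), 1 bar per tumor, with the heavy chain count above the bar. Ighg2c (red) is 8.60 to 49.3% in the 6 tumors with ASC and 0 to 7.15% in the others. Ighd (dark grey) is 32.5% in Control replicate 1, and bars of 512 to 918 counts rest on few reads.

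Of the constant regions outside the 10 genes, Ighd, which marks naive B cells, separated Control replicate 1 from the tumors with ASC. It was at 3806 counts in that tumor, 104 and 80 in the other Control tumors, 23, 199 and 25 in ASC, 20, 52 and 13 in As300, and 37, 28 and 49 in ASC_As300. The ratio of Ighd to Ighm counts was 0.433 in Control replicate 1, 0.147 and 0.221 in Control replicates 2 and 3, 0.0174 to 0.130 in ASC, 0.0265 to 0.0968 in As300 and 0.0194 to 0.0428 in ASC_As300. Ighd did not pass the test in any of the 5 comparisons; its smallest p was in As300 against Control (log2 fold change -5.52 ± 1.499 (SE), edgeR quasi-likelihood adjusted p = 0.0603), a value that became -1.62 when Control replicate 1 was left out (adjusted p = 0.339). Ighg3 had 109 counts in Control replicate 1, 32, 0 and 12 in ASC, 36, 0 and 72 in ASC_As300 and 0 in the other 5 tumors, where it is under the floor. Ighe and Iglc4 had counts in Control replicate 1 alone. The lambda constant regions Iglc1, Iglc2 and Iglc3 summed to 1407 counts in Control replicate 1 and 0 to 90 elsewhere, and of the 7 constant regions 5 were tested and none was called in any comparison (lower at an unadjusted p under 0.05 were 4 in As300, 4 in ASC_As300 and 1 in ASC against Control, beside 13%, 6.5% and 6.87% of all genes). Their median log2 fold changes in these 3 comparisons were -4.97, -4.18 and -3.37, and -0.24, 0.52 and 1.34 without Control replicate 1. Iglc2 and Iglc3 share 5 of their 75-base windows, so the split between them is uncertain.

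The remaining plasma cell genes were near the floor. Mzb1, a chaperone of the endoplasmic reticulum that helps to assemble IgM, had 153, 13 and 3 counts in Control, 0, 31 and 12 in ASC, 0, 6 and 0 in As300, and 5, 28 and 0 in ASC_As300. The annotation has another gene on the same strand overlapping Mzb1, so its counts are uncertain. Derl3, which acts in the degradation of misfolded proteins of the endoplasmic reticulum, had 34, 9 and 0 counts in Control, 30, 31 and 22 in ASC, 4, 11 and 23 in As300, and 24, 20 and 15 in ASC_As300. Tnfrsf17 (BCMA), the receptor that keeps long-lived plasma cells alive, had 4, 12 and 0 counts in ASC, 10 in As300 replicate 3 and 0 in the other tumors, so it was at or under the floor in every tumor. It failed the filter on low counts, and the other 9 genes passed.

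In the fit over all genes, none of the 9 tested genes was called (adjusted p under 0.05 and at least 1.5-fold) in any comparison. Over the 20818 genes tested, the share called higher was 0.706% in ASC against Control, 0.701% in As300 against Control, 0.783% in ASC_As300 against Control, 0% in ASC_As300 against ASC and 0.793% in ASC_As300 against As300. The shares called lower were 0.0144%, 0.355%, 0.024%, 0% and 0.0624%. At an unadjusted p under 0.05, in the same edgeR fit, none was higher and 1 lower in ASC against Control (8.55% and 6.87% of all genes), none higher and 7 lower in As300 against Control (11.2% and 13%), and none higher and 1 lower in ASC_As300 against Control (8.7% and 6.5%). None was in ASC_As300 against ASC (1.47% and 1.74%), and 3 were higher and none lower in ASC_As300 against As300 (6.33% and 3.65%). The first 3 comparisons share the Control tumors, so they are not independent of each other.

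The comparisons with Control turned on Control replicate 1. For Jchain the log2 fold change ± SE was -1.73 ± 1.16 in ASC against Control with it and 2.27 ± 0.78 without it, and in ASC_As300 against Control it was -2.04 ± 1.17 and 1.96 ± 0.77. Igkc went from -1.72 ± 1.13 to 2.42 ± 0.58 in ASC and from -2.03 ± 1.14 to 2.09 ± 0.57 in ASC_As300. The same turn in direction was seen for Ighm (ASC, -1.13 ± 0.82 to 1.54 ± 0.29) and Ighg2b (ASC, -1.34 ± 1.09 to 2.29 ± 0.70). Ighg2c was -0.05 ± 1.41 in ASC against Control and 5.45 ± 1.34 without that tumor, where its Control counts are 0 and 17.

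Over the 9 tested genes the median log2 fold change was -1.34 in ASC against Control, with 2 higher and 7 lower, and 2.27 without Control replicate 1, with 8 higher and 1 lower. In ASC_As300 against Control it was -1.89, with 3 higher and 6 lower, and 1.73 without that tumor. In As300 against Control it was -4.68, with 1 higher and 8 lower, and -0.38 without it. Counting values under the floor as 12 counts, the medians over all 10 genes were 0.43 in ASC, 0.05 in ASC_As300 and -1.74 in As300. The medians over all genes tested lay between -0.028 and 0.0002 in the 5 comparisons. Without Control replicate 1 the fit counted 1 of the 9 as higher in ASC against Control (0.979% of all genes), none in ASC_As300 against Control (0.919%) and none in As300 against Control (0%). None was counted as lower, beside 0.0277%, 0.0185% and 0% of all genes. These counts are no test of genes chosen with their values known. With all 12 tumors, none of the 9 genes was higher in each tumor of a group than in each Control tumor, beside 9.94%, 14.5% and 13.5% of all genes for ASC, As300 and ASC_As300. Lower in each tumor were Jchain and Ighg1 for As300, beside 15.4% of all genes, and none for ASC (9.01%) or ASC_As300 (12.2%).

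**Figure D3:**
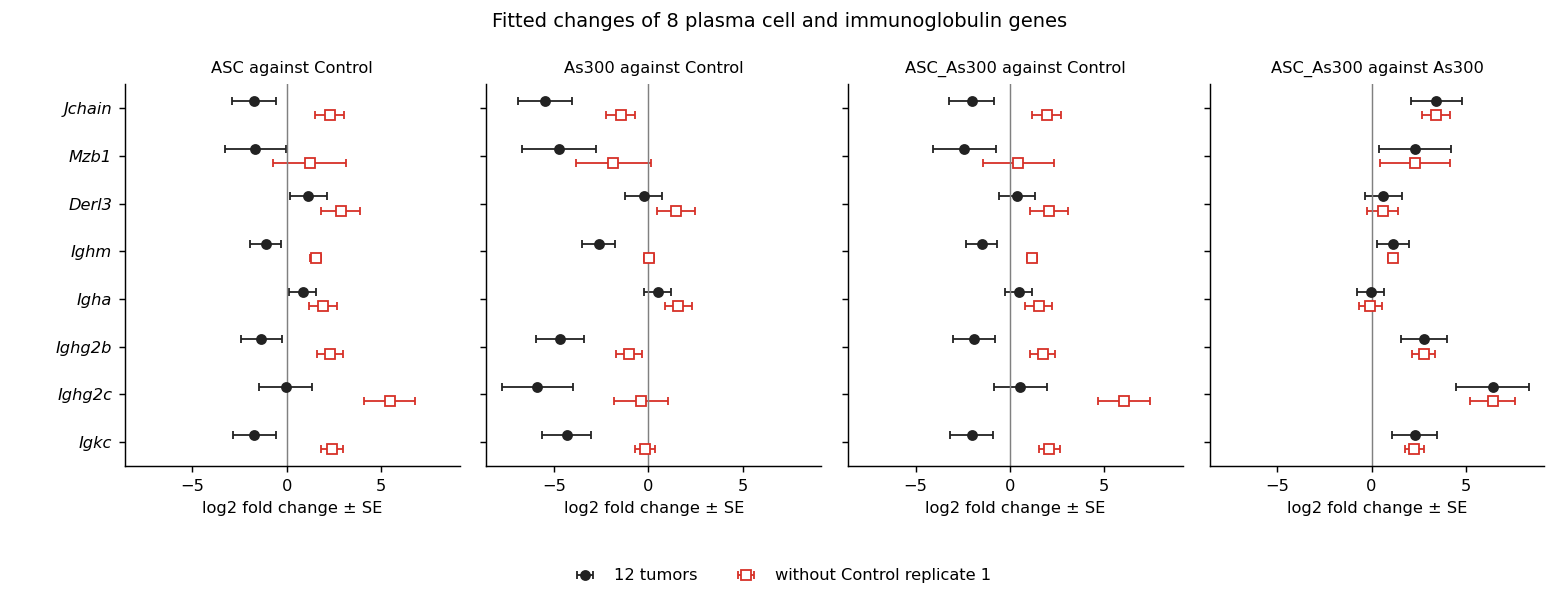
Fitted log2 fold change ± SE (horizontal axis) of 8 genes in 4 comparisons, from all 12 tumors (black circles) and without Control replicate 1 (open red squares). Tnfrsf17 was not tested and Ighg1 is left out because its As300 tumors are all at 0. For Jchain, Ighm, Ighg2b and Igkc the sign against Control turns from below to above 0 in ASC and in ASC_As300, whereas the values of ASC_As300 against As300, which uses no Control tumor, move little. Values of Mzb1 against As300 depend on the prior count, as its As300 tumors are under the floor.

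ASC_As300 against As300 asks what ASC did in mice that drank iAs, and it uses no Control tumor. The log2 fold change ± SE was 6.43 ± 1.93 for Ighg2c, 3.44 ± 1.36 for Jchain, 2.79 ± 1.21 for Ighg2b, 2.30 ± 1.20 for Igkc and 1.14 ± 0.83 for Ighm. For Ighg2c and Jchain the As300 side rests on 0, 14 and 6 and on 8, 0 and 12 counts. These 5 genes were higher in each ASC_As300 tumor than in each As300 tumor, where 11.3% of all genes tested were, none was lower in each (8.37%), and the 10 genes were chosen with this pattern known. Derl3 was at 0.62 ± 0.98 and Igha at -0.04 ± 0.71. The median over the 9 tested genes was 2.31, and 0.73 over all 10 with values under the floor counted as 12. With Control replicate 1 left out of the fit, the SE became 0.73 for Jchain, 1.17 for Ighg2c and 0.49 for Igkc at log2 fold changes of 3.42, 6.42 and 2.28. The fit then counted 3 of the 9 as higher (1.07% of all genes) and none as lower (0.212%), which is again no test, since this pattern chose the genes. In bulk tissue, more plasma cells and more immunoglobulin RNA per cell cannot be told apart.

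ASC_As300 against ASC asks what iAs did in tumors that held ASC. The 9 log2 fold changes lay between -0.77 (Derl3, ± 0.96) and 0.60 (Ighg2c, ± 1.41), with a median of -0.37. Only Derl3 was lower in each ASC_As300 tumor than in each ASC tumor (3.91% of all genes were), and none was higher in each (4.17%). In the ASC by iAs interaction none of the 9 genes was called, nor was any of the 20818. At an unadjusted p under 0.05 in the edgeR fit, 5 of the 9 were higher and none lower, as were 7.08% and 6.55% of all genes. Its median over the 9 genes was 4.02 with Control replicate 1 and 0.47 without it.

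B cell genes did not follow this order. The 16 B cell genes (among them Ms4a1, Cd79a and Pax5) summed to 24.9, 44.6 and 15.9 CPM in ASC, 20.3, 22.2 and 20.7 in ASC_As300, 13.7, 21.5 and 14.8 in As300, and 358, 21.1 and 20.1 in Control. Of 15 tested, none was called in any comparison, with or without Control replicate 1. At an unadjusted p under 0.05, 14 were lower in As300 against Control, 12 in ASC_As300 and 10 in ASC (13%, 6.5% and 6.87% of all genes). The medians of these 3 comparisons were -3.63, -3.13 and -2.87 with Control replicate 1, and -0.38, -0.17 and 0.34 without it. Without it 4, 6 and 10 of the 15 were higher. In ASC_As300 against As300 11 were higher and 4 lower with a median of 0.28. In ASC_As300 against ASC all 15 were lower, with a median of -0.53 (-0.54 without Control replicate 1), none at an unadjusted p under 0.05. Cd79a, a subunit of the B cell receptor, was at 41, 91 and 38 counts in ASC, 47, 20 and 30 in ASC_As300, 19, 95 and 27 in As300, and 2274, 52 and 84 in Control. Jchain counts were 0.571 to 2.90 times those of Cd79a in ASC and 1.77 to 3.37 times in ASC_As300, against 0 to 0.444 in As300 and 0.226 to 0.380 in Control. For this ratio Control replicate 1, at 0.380, was with the tumors without ASC. Igkc counts were likewise 0.195 to 0.779 of the B cell sum in the tumors with ASC, 0.316 in Control replicate 1 and 0.0740 to 0.197 in the other 5 tumors, where the ranges overlapped by 1 tumor.

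T cell genes other than Cd4 followed the order of the immunoglobulin genes. The 8 T cell genes summed to 54.7, 57.0 and 73.8 CPM in ASC, 52.4, 45.4 and 73.3 in ASC_As300, 13.5, 13.3 and 19.0 in As300, and 81.2, 16.9 and 15.6 in Control, and all 8 had counts in every tumor. Cd4, the co-receptor of helper T cells (named after its values were seen), was at 6.52, 6.67 and 3.10 CPM in ASC, 6.91, 6.34 and 4.85 in ASC_As300, 3.603, 4.68 and 4.94 in As300, and 15.1, 5.30 and 5.64 in Control, so its groups overlapped. Against Control, the median log2 fold change of the 8 was 0.92 in ASC, 0.75 in ASC_As300 and -1.27 in As300, and none was called. Without Control replicate 1 these medians were 2.48, 2.25 and 0.25. Then 7 of the 8 were called higher in ASC, 5 in ASC_As300 and 0 in As300 (0.979%, 0.919% and 0% of all genes), and none lower. In ASC_As300 against As300, with all tumors, all 8 were higher, with a median of 1.96. Of these, 7 had an unadjusted p under 0.05 (6.33% of all genes), but none was called. Cd8a, the co-receptor of cytotoxic T cells, had the smallest p (log2 fold change 3.29 ± 0.73, edgeR adjusted p = 0.0624), and without Control replicate 1 it was called (3.27, adjusted p = 0.000625), as were 6 of the 8 genes. Their part in the levels of the immunoglobulin genes was not tested.

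**Figure D4:**
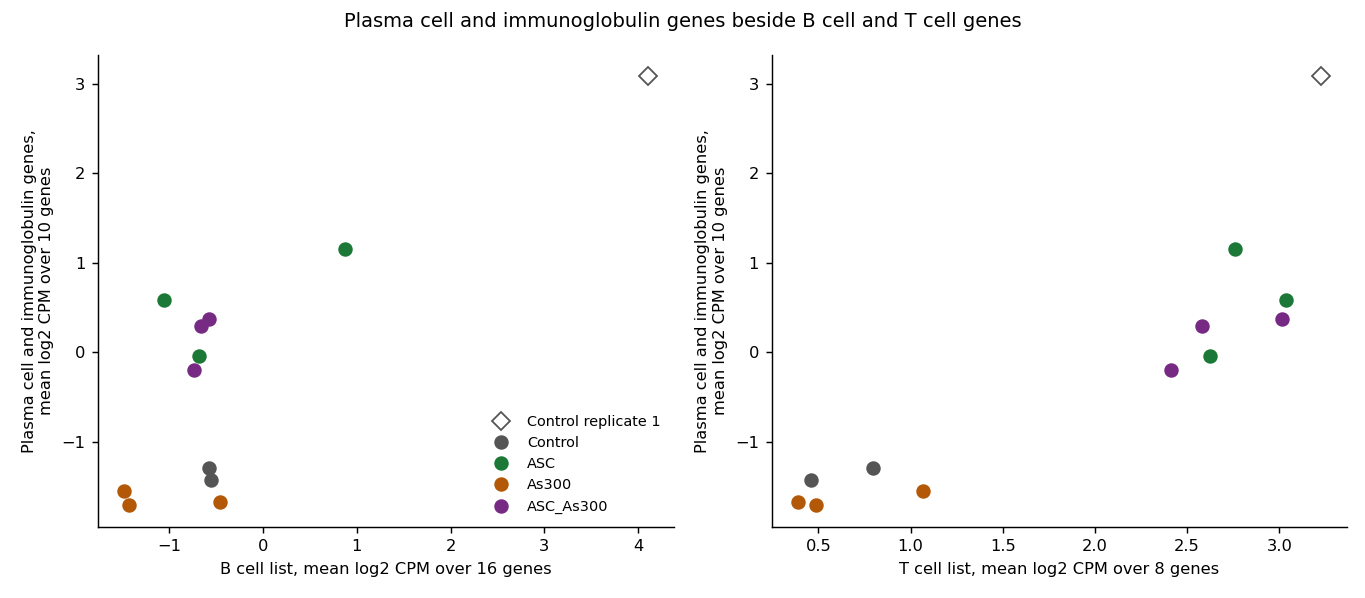
Mean log2 CPM of the 10 plasma cell and immunoglobulin genes (vertical axis) against that of 16 B cell genes (left) and 8 T cell genes (right), 1 point per tumor. The 6 tumors with ASC lie between -0.20 and 1.16 on the vertical axis and the As300 tumors and Control replicates 2 and 3 between -1.71 and -1.30. On the left these 11 tumors overlap in B cell genes apart from ASC replicate 2, and Control replicate 1 (open diamond) is far to the right at 4.10.

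Genes that regulate plasma cells gave few calls. Of 11 (Prdm1, Xbp1, Irf4 and others), 1 was called, Slamf7, a surface receptor of plasma cells that NK cells and cytotoxic T cells also carry. In As300 against Control 1 of the 11 was higher and 5 were lower at an unadjusted p under 0.05 (11.2% and 13% of all genes), with a median of -0.55, and of -0.20 without Control replicate 1. Slamf7 was at 5.11, 4.51 and 3.32 CPM in Control, 9.35, 6.46 and 8.76 in ASC, 3.30, 2.94 and 2.58 in As300, and 8.73, 7.80 and 9.38 in ASC_As300, so every tumor with ASC was above every tumor without. It was higher in ASC_As300 against As300 (log2 fold change 1.55 ± 0.22, edgeR adjusted p = 0.00283, 0.0228 at most over 19 alternatives) and against Control (1.00 ± 0.21, adjusted p = 0.0459, 0.2096 at most), and the latter call was lost in 12 of the 19 (without Control replicate 1 it held, at 1.14 and adjusted p = 0.0415). In ASC against Control it was 0.93 ± 0.21 (adjusted p = 0.0730). Xbp1, the transcription factor of the secretory programme, was at 82.9 to 95.5 CPM in Control and 93.8 to 113.5 in ASC (log2 fold change 0.25 ± 0.09, adjusted p = 0.211). Sdc1 (CD138), which tumor epithelium also carries, was at 70.8 to 132.8 CPM over all tumors (As300 against Control 0.48 ± 0.12, adjusted p = 0.0551), and Tnfrsf13c, the BAFF receptor of B cells, was at 6.84 CPM in Control replicate 1 and 0 to 0.965 elsewhere (ASC_As300 against Control -4.82 ± 1.79, adjusted p = 0.241).

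Genes of antibody folding and secretion, which every secreting cell uses, were mostly higher against Control in the tumors with ASC, by small factors. The sum of the 14 genes was lowest in Control replicate 1 (2197 CPM) and highest in ASC_As300 replicate 2 (2814 CPM). In ASC against Control 12 of the 14 were higher, with a median log2 fold change of 0.23. At an unadjusted p under 0.05, 7 were higher and 1 lower (8.55% and 6.87% of all genes). In ASC_As300 against Control 10 were higher, with a median of 0.24, and 8 had an unadjusted p under 0.05 (8.7% of all genes). In each of these comparisons 7 were higher in each tumor than in each Control tumor (9.94% and 13.5% of all genes). In As300 against Control 8 of the 14 were higher, with a median of 0.06, and 5 were higher in each tumor (14.5% of all genes). Without Control replicate 1, 11 were higher in ASC, 11 in ASC_As300 and 10 in As300, with medians of 0.21, 0.21 and 0.10. Sdf2l1, a chaperone partner in the endoplasmic reticulum, was the 1 gene called, higher in ASC (log2 fold change 0.94 ± 0.17, adjusted p = 0.0165, 0.111 at most over 19 alternatives) and in ASC_As300 (0.81 ± 0.16, adjusted p = 0.0380, 0.179 at most) against Control. The calls were lost in 5 and 9 of the 19 alternatives, and without Control replicate 1 the first held (0.99, adjusted p = 0.0388) and the second did not (0.85, adjusted p = 0.0793). Manf, Pdia6 and Fkbp11 had log2 fold changes of 0.58 ± 0.13, 0.32 ± 0.07 and 0.63 ± 0.17 in ASC against Control (adjusted p = 0.0653, 0.0730 and 0.120). In ASC_As300 against As300 none of the 14 was called and the median was 0.13, with 4 genes higher at an unadjusted p under 0.05 (6.33% of all genes).

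Signals that steer isotype switching gave calls for 2 of 7 tested genes, Ifng and Tgfb1, and for none without Control replicate 1. Ifng, the cytokine that drives switching to IgG2c, had 5, 12 and 4 counts in Control, 114, 64 and 96 in ASC, 12, 0 and 23 in As300, and 100, 112 and 178 in ASC_As300. It was higher in ASC_As300 against Control (log2 fold change 4.14 ± 0.83, edgeR adjusted p = 0.0347, 0.155 at most over 18 alternatives, lost in 8, among them without Control replicate 1, at 3.96 and adjusted p = 0.0926), with values of 3.86 ± 0.83 in ASC against Control (adjusted p = 0.0563) and 3.41 ± 0.79 in ASC_As300 against As300 (adjusted p = 0.0813). Control replicate 1 had 5 Ifng counts, beside 12 and 4 in the other Control tumors, and 1162 Ighg2c counts. The part of Ifng in the Ighg2c levels was not tested. Tgfb1, which drives switching to IgA, was higher in As300 against Control (0.63 ± 0.08, adjusted p = 0.0356, 0.154 at most, lost in 7 of 19, among them without Control replicate 1, at 0.66 and adjusted p = 0.0660), at 4754 to 6691 counts against 3847 to 3927. Il4 was at 30 to 56 counts in all 12 tumors (named after its values were seen). Ung and Tbx21 were not called (0.56 ± 0.17 in ASC against Control, adjusted p = 0.169, and 1.77 ± 0.55 in ASC_As300 against As300, adjusted p = 0.250).

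Other lists gave few calls. Among 14 genes of plasma cell survival, homing and help, 10 were tested and none was called. The smallest p were those of Tnfsf13b, which encodes the survival factor BAFF (0.61 ± 0.17 in ASC against Control, adjusted p = 0.141) and Cd40 (0.87 ± 0.26 in ASC_As300 against As300, adjusted p = 0.234). In each comparison 1 to 4 genes had an unadjusted p under 0.05. Of all genes, 1.47 to 11.2% were higher and 1.74 to 13% lower at that p over the 5 comparisons. Without Control replicate 1, Cd40, the receptor through which T cells help B cells, was called higher in ASC (1.28, adjusted p = 0.0106) and ASC_As300 (1.06, adjusted p = 0.0334) against Control and in ASC_As300 against As300 (0.85, adjusted p = 0.0410). Of 7 germinal centre genes 5 were tested and none was called. At most 2 had an unadjusted p under 0.05 in a comparison, 1 higher and 1 lower in As300 against Control (11.2% and 13% of all genes). Rgs13, a germinal centre B cell gene named after its values were seen, had 0 to 7 counts. Of 11 genes of lymphoid stroma and high endothelium 7 were tested and none was called. At most 4 had an unadjusted p under 0.05, all lower in As300 against Control (13% of all genes). Cxcl13, the B cell chemokine, was at 643 counts in Control replicate 1 and 8 to 78 elsewhere. Trim21, a cytosolic receptor for antibody, was called in the immunoglobulin transport list, where 2 of 4 genes were tested: it was higher in ASC against Control (1.09 ± 0.21, adjusted p = 0.0307, 0.145 at most, lost in 8 of 19, among them without Control replicate 1, at 1.12 and adjusted p = 0.0637) and in ASC_As300 against As300 (1.22 ± 0.21, adjusted p = 0.0144, 0.0769 at most, lost in 2 of 19). Pigr, which carries polymeric IgA and IgM across epithelium, had 0 to 4 counts (named after its values were seen).

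Among markers of other cells, C1qa and C1qb, complement genes of macrophages, were higher in ASC (0.81 ± 0.11 and 0.83 ± 0.13, adjusted p = 0.00221 and 0.00672) and in ASC_As300 (0.76 ± 0.11 and 0.86 ± 0.13, adjusted p = 0.00362 and 0.00483) against Control, and the other 5 of 7 macrophage genes were not called. Over 19 alternatives only C1qb in ASC against Control lost its call, in 1 (adjusted p = 0.0666). Of 6 epithelial genes Krt8 was lower in ASC_As300 against Control (-2.51 ± 0.49, adjusted p = 0.0309, 0.176 at most, lost in 5 of 19), with a log2 fold change of -1.40 once Control replicate 1 was left out (adjusted p = 0.00806). None of 9 stromal and 4 pan-leukocyte genes was called. At an unadjusted p under 0.05, at most 2 stromal genes were higher, in ASC against Control (8.55% of all genes). At most 3 pan-leukocyte genes were, in ASC_As300 against As300 (6.33%). Without Control replicate 1, C1qa and C1qb were still called in both comparisons (0.78 to 0.93, adjusted p at most 0.0111), Krt8 was also called lower in ASC against Control (-1.15, adjusted p = 0.0270) and in ASC_As300 against As300 (-1.80, adjusted p = 0.000649), and Coro1a, a pan-leukocyte gene, was called higher in ASC (1.06, adjusted p = 0.00670) and ASC_As300 (1.05, adjusted p = 0.00693) against Control. The leukocyte genes summed to 335 to 431 CPM in the tumors with ASC, 210 to 283 in As300 and Control replicates 2 and 3, and 391 in Control replicate 1, within the range of the tumors with ASC.

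The variable segments show which antibody genes the cells had used. The 185 Ighv segments summed to 160, 209 and 178 counts in ASC, 187, 110 and 368 in ASC_As300, 25, 20 and 18 in As300, and 2308, 82 and 29 in Control. Igkv segments followed, at 156 to 488 counts in the tumors with ASC, 29 to 56 in As300, and 3923, 87 and 49 in Control. Segments with any count numbered 13 to 22 of Ighv in the tumors with ASC, 4 to 7 in As300, and 73, 12 and 9 in Control. Only 19 of the 382 V, D and J segments passed the filter and none of them was called. In ASC_As300 against As300, 5 were higher at an unadjusted p under 0.05 (6.33% of all genes). Without Control replicate 1, 25 passed the filter. Then 1 Ighv segment was called higher in ASC against Control (0.979% of all genes). Of the Igkv segments, 1 was called higher in ASC_As300 against Control (0.919%) and 1 in ASC_As300 against As300 (1.07%).

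**Figure D5:**
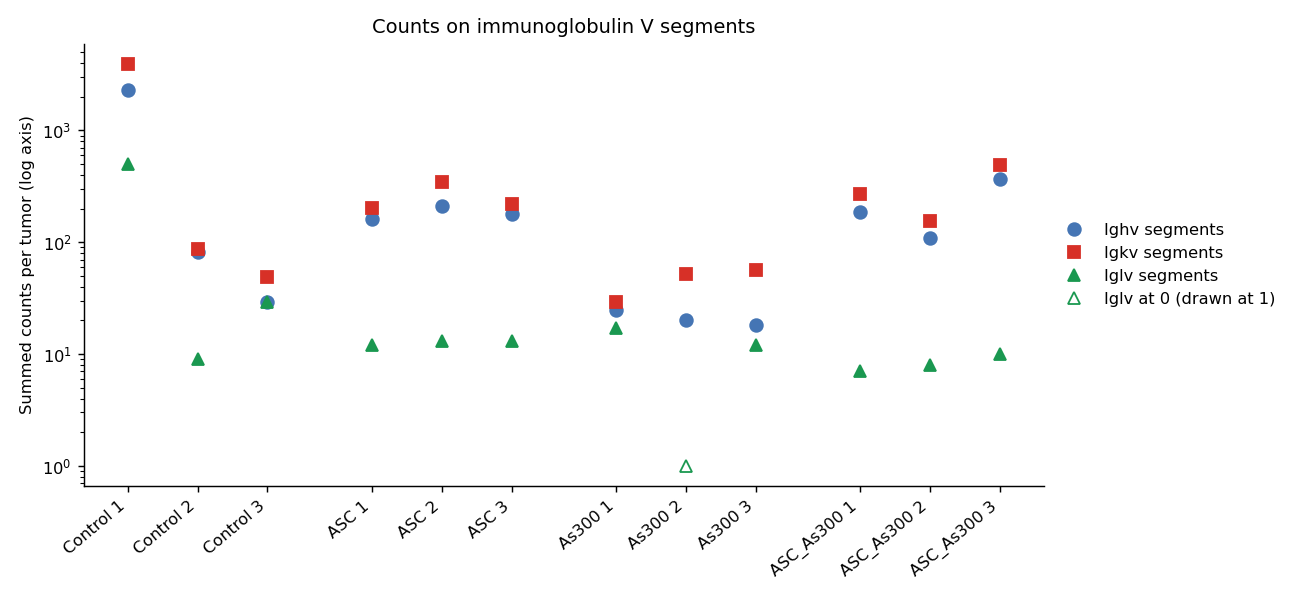
Summed counts on the Ighv (circles), Igkv (squares) and Iglv (triangles) segments in each tumor, on a log axis. Ighv counts are 110 to 368 in the 6 tumors with ASC, 18 to 82 in As300 and Control replicates 2 and 3, and 2308 in Control replicate 1. Iglv counts are 0 to 29 outside Control replicate 1.

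The leading segment differed between Control replicate 1 and the tumors with ASC. The germline 3′ ends of the leading heavy and kappa segments are shown because they run into the joined CDR3. They are from GENCODE transcripts on GRCm38. Capitals mark the codons that end with the conserved cysteine, and the bases after them are the germline start of CDR3.
Ighv1-82 (chr12:115952538-115953005, minus strand): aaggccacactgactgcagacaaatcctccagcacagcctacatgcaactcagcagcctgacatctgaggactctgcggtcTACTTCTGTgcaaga
Ighv8-12 (chr12:115647945-115648387, minus strand): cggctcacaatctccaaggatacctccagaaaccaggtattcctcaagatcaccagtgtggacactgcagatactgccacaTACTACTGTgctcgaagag
Igkv10-96 (chr6:68631963-68632442, minus strand): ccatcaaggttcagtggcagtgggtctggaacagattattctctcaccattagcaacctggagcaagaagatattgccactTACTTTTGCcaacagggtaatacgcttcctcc
Igkv17-127 (chr6:67861153-67861659, plus strand): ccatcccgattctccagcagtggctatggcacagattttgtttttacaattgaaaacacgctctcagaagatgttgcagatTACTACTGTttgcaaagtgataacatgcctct
Ighv8-12 had 434 counts in Control replicate 1, which was 18.8% of its Ighv counts (Wilson interval 15.7 to 22.1%), and 0 in the other 11 tumors. Ighv1-82 led in 5 of the 6 tumors with ASC, at 34, 60 and 36 counts in ASC and 40 and 72 in ASC_As300 replicates 1 and 3, and was the next to Ighv3-8 in ASC_As300 replicate 2, at 15 against 33. It had 26 counts in Control replicate 1 and 0 to 5 in the other 5 tumors. Its shares of the Ighv counts ran from 13.6% (5.70 to 31.5%) to 28.7% (18.3 to 42.3%) in the tumors with ASC, with intervals that all overlapped. Germline Ighv1 segments are close relatives, so reads may have been split among them. In the fit with all 12 tumors Ighv1-82 was not called (ASC against Control 2.53 ± 1.29, edgeR adjusted p = 0.375).

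Kappa segments were more varied. Igkv17-127 led in Control replicate 1, at 695 counts and 17.7% (15.5 to 20.3%), and had 0 to 6 counts elsewhere. Igkv10-96 was second in Control replicate 1, at 309 counts and 7.88% (6.33 to 9.70%). It had 4 to 95 counts in the tumors with ASC and 0 to 8 in the other tumors without ASC. Among the tumors with ASC, Igkv10-96 led in ASC replicate 1 and ASC_As300 replicate 3 (53 and 95 counts), Igkv6-23 in ASC replicate 2 and ASC_As300 replicate 1 (36 and 67), Igkv4-72 in ASC replicate 3 (37) and Igkv10-94 in ASC_As300 replicate 2 (38). Igkv6-23 was present in all 6 of them at 10 to 67 counts and, of the tumors without ASC, in Control replicate 1 alone (80 counts). In Control replicates 2 and 3 and As300 the leading Ighv segment had 4 to 16 counts and the leading Igkv segment 9 to 25, near the floor.

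The effective number of Ighv segments, the inverse of the summed squared shares, was 6.91 to 11.2 in the tumors with ASC, 2.67 to 5.40 in As300, and 19.0, 8.04 and 8.17 in Control. It was 9.21 ± 1.86 (SD, n = 6) with ASC and 8.01 ± 5.78 (n = 6) without (exact permutation test within iAs level, two-sided, p = 0.670, adjusted over the 4 tests p = 0.805; without Control replicate 1 the difference was 3.40 in place of 1.20, unadjusted exact permutation p = 0.0250), and 6.80 ± 3.21 with and 10.4 ± 4.43 without iAs (exact permutation p = 0.105, adjusted p = 0.210). With 400 regroupings the smallest p is 0.005. As300 tumors held only 18 to 25 Ighv counts, on 4 to 7 segments, and so few counts cap the effective number. These p-values therefore cannot tell a different use of segments from low counts, and nothing is read from them. The lambda share of light chain V counts was 4.04 ± 1.55% (SD, n = 6) with ASC and 18.7 ± 15.3% (n = 6) without (exact permutation p = 0.0300, adjusted p = 0.120), which did not pass after adjustment. Each tumor with ASC, at 2.01 to 5.63%, was below 5 of the 6 tumors without, and the other, As300 replicate 2, had 0 lambda V counts of 52, which allows a share of up to 22.8% (Wilson). For iAs the shares were 10.7 ± 14.3% with and 12.1 ± 12.6% without (n = 6 each, exact permutation p = 0.805, adjusted p = 0.805). All tumors other than Control replicate 1 held 0 to 29 lambda V counts. The lambda share of the light chain constant region counts differed from it in As300, at 36.6% in replicate 2, where the V share was 0%, and at 0% in replicate 3, where the V share was 17.6%. By constant regions the tumors with ASC were at 4.24 to 12.9%, Control at 12.3 to 23.7% and As300 at 0 to 36.6%, so the groups overlapped.

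Genes whose log2 CPM most resembled the mean standardised log2 CPM of the 9 tested genes are given by Pearson's r, as a description. Over the 12 tumors these were Gpr18 (r = 0.957), Ltb, Slamf6, Gm14085 (0.938 each), Slc37a1 (0.933), Il16 (0.929), Lax1 (0.927), H2-DMb2 (0.923), Traf3ip3 (0.920) and Ikzf3 (0.918). Gpr18 was at 4.65 CPM in Control replicate 1, 1.26 to 2.31 in the tumors with ASC and 0.530 to 1.21 in the others. Over the 11 tumors without Control replicate 1 the list was Trbc2 (r = 0.957), Ly6c1 (0.949), Xaf1 (0.948), Ly6a (0.947), Zbp1 (0.946), B2m, Rtp4, H2-Q4 (0.944 each), Cd160 and Spon2 (0.943 each), and it shared no gene with the other. Zbp1 was at 45.0 to 72.9 CPM in the tumors with ASC and 10.1 to 18.1 in all 6 others, Control replicate 1 included at 18.0, so this gene did not follow the immunoglobulin genes in that tumor. The tumors fall into separate groups in these measures, and r says little beyond that separation.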

How the data were processed

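The authors trimmed reads of TruSeq stranded mRNA libraries (paired-end, Illumina NovaSeq) with cutadapt 1.1.0, aligned them with HISAT2 2.0 and assembled them with StringTie 1.3.4, per the labels. The step that made the deposited counts, the genome build and the annotation are not given in the sources used here. The deposited file holds whole-number counts for 55401 Ensembl genes in 12 tumors, of which 55141 have a symbol. In each library 1137 to 1298 genes were at 4 counts, 618 to 795 at 3 and 380 to 414 at 5, so what 1 count stands for is not known. The floor (12 counts) and the intervals therefore treat 4 counts as 1 pair. Precision is limited by totals of 39157647 to 55168642 counts and 3 tumors a group.

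Counts were fitted with edgeR 4.0.16 (R 4.3.3; TMM, filterByExpr, quasi-likelihood test, 1 mean per group, 12 tumors), with p-values adjusted by Benjamini-Hochberg over 20818 genes. A gene was called at an adjusted p under 0.05 and at least 1.5-fold. Each library is 1 mouse. V segment measures were compared by exact permutation in Python 3.11.15 (SciPy 1.17.1). In data simulated for ASC against Control (20143 genes), 43.8% of 2-fold and 71.9% of 4-fold changes were recovered, with 2 false calls. Lengths, overlaps and sequences are from GENCODE on GRCm38, without coordinates for Mzb1.

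The 10 genes and all lists were chosen with earlier results of these data known. Named beside them were all other constant regions, the up to 4 genes of each list with the smallest p over the 5 comparisons, the leading Ighv and Igkv segment of each tumor, and the 10 genes most correlated with the mean of the 9 tested genes. The lists were immunoglobulin constant regions, plasma cell regulators, antibody folding, plasma cell survival and homing, isotype switch signals, germinal centre, B cells, lymphoid stroma, immunoglobulin transport, T cells, macrophages, epithelial, stromal and leukocyte genes. Alternatives were DESeq2 1.42.0, its size factors in edgeR, no filter, at least 10 counts in every tumor, counts divided by 4, only the compared groups, a replicate block, and leaving out each tumor; for V segments, a minimum of 12 counts, the expected number at the lowest total (counts taken as molecules) and summed counts. The exon-union length for isotype shares was chosen after seeing the data. Other names, where given, were chosen after their values were seen. Some members of the lists are not reported here.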

Additional observations from a re-analysis of the deposited data

How the results depend on the processing

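The median of ASC and of ASC_As300 against Control turned in direction without Control replicate 1, and that of As300 against Control stayed below 0. Leaving out each tumor in turn gave a median log2 fold change of the 9 tested genes from -1.88 to 2.27 in ASC against Control, -2.44 to 1.73 in ASC_As300 against Control and -5.21 to -0.38 in As300 against Control, the upper end each time without Control replicate 1. Of single genes of the 10, Ighm in ASC against Control turned from -1.13 to 1.54 without it and was then called (range -1.63 to 1.54). Over all alternatives there were 804 results for single genes of the 10. Of these, 9 gained a call in the same direction, 1 turned in direction with a call, and the others gained none. These counts are no test of genes chosen with their values known. In ASC_As300 against As300 the median of 2.31 ran from 1.98 to 2.89 (highest without ASC_As300 replicate 3) and was 1.11 with at least 10 counts in every tumor, which left fewer genes. In ASC_As300 against ASC it ran from -0.59 to -0.02.

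Among 400 immunoglobulin and plasma cell genes outside the 10, the calls against Control were 0 in ASC, 0 in As300 and 1 in ASC_As300, and became 1, 1 and 2 with DESeq2. The 1 call in ASC_As300 against As300 became 3, and ASC_As300 against ASC had 0 in both. In ASC_As300 against Control the count was 0 with no filter, with only the compared groups and with the replicate block. In As300 against Control it was 1 with at least 10 counts in every tumor and with counts divided by 4, and in ASC_As300 against As300 it was 2 with only the compared groups. Leaving out a tumor gave 0 to 1 calls in ASC, 0 to 1 in As300 and 0 to 2 in ASC_As300 against Control, 1 to 2 in ASC_As300 against As300, and 0 in ASC_As300 against ASC and in the interaction. The cause of these shifts was not tested.

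The ASC effect on the effective number of Ighv segments ran from 0.131 to 3.40, with an exact permutation p of 0.0250 without Control replicate 1, and the iAs effect from -4.45 to -1.89, with p = 0.04 without ASC_As300 replicate 1. The 18 to 25 Ighv counts of the As300 tumors cap this number, so neither p can tell segment use from low counts. The lambda share ran from -18.5 to -11.0 percentage points for ASC and from -6.70 to 3.57 for iAs. The lambda share of light chain V segment counts, ASC effect, was -31.7 with segments of at least 12 counts (exact permutation p = 0.1), and its unadjusted p was above 0.05 in each of the 6 fits that left out a tumor with ASC. The Ighv measure was not run with that minimum, since only 8 of 12 tumors kept a segment.

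Replicate numbers did not pair the tumors: correlations of same-numbered deviations ran from -0.124 to 0.172, and 3 of 12 tumors correlated best with their own number. With the replicate block the 1 call in ASC_As300 against Control became 0 (Slamf7, ASC_As300 against Control, edgeR adjusted p = 0.0548).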
